A study of Mus musculus with 21 samples.

Results

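The genes described here are 8 of the 19937 genes on the arrays: 2 beta subunits of the sodium pump (Atp1b1, Atp1b3), the sodium-coupled or ion carriers Slc5a3, Slc34a2, Slc12a2 and Slc4a11, the water channel gene Aqp5 and the osmotic regulator gene Nfat5. They were chosen by name as genes of sodium transport and osmotic balance, with earlier results of these data known. Counts of these genes, or of the gene lists below, beside shares of all genes are therefore descriptions and no test of the set. Each of the 8 was read from the probe set with the highest mean over the 21 arrays, and all 8 were measured. Atp1b1, Slc5a3, Slc34a2 and Slc4a11 are among genes that the study listed from these same arrays, so their directions are not independent evidence. The cells were N202, a mouse mammary tumour line from FVB-NeuN mice that carry a rat HER-2/neu transgene under the MMTV promoter, marked with H2B-GFP and used as 1 line throughout. Spheroids of these cells were grown on minced donor tissue that had regained blood vessels in dorsal skinfold chambers of nude mice, 21 days a passage, and were selected with G418, sorted for GFP and grown again in culture before RNA was taken, so every array is of cultured cells. Groups were N202 cells adapted on brain at passages P1, P2, P3 and P4 (2 arrays each), a second adaptation experiment on brain at P1 and P2 (1 array each), cells from bone marrow and from lung at P1 to P4 (1 array each), cells from breast tissue at P1 (1 array), and the parental cells P0 (2 arrays). The second array of each brain pair is labelled a technical replicate, although by the methods the adapted cells were cultured anew for it, so the tests measure the spread between cultures of 1 adapted line.

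The sodium pump exports sodium and imports potassium at the cost of ATP, and its beta subunit is needed for the pump to reach the plasma membrane. The sodium gradient it makes drives carriers that bring in phosphate, myo-inositol and chloride. In the brain and the kidney, cells adjust to osmotic load by taking up ions at first and organic osmolytes such as myo-inositol and taurine later, and the transcription factor NFAT5 is the known regulator of that second response.

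Values are log2 RMA values, so a difference of 1 is 2-fold. A value of one probe set says nothing of its level against another. Differences were tested with limma on all 21 arrays in 1 fit over 16 groups, and the threshold for a call was 0.05 for the p adjusted by Benjamini-Hochberg over 10428 kept probe sets. Those probe sets are the 30% with the highest largest group mean, the lowest kept being 7.36, and they hold 7236 genes. All 8 genes passed that filter, but Slc34a2 passed through 2 of 16 groups, brain P1 and P2, and Slc5a3 through 4 groups, so both had to be high somewhere to be tested. The epithelial markers Epcam, Krt8, Krt18, Cdh1 and Erbb2 lay above 7.36 on all arrays and Krt19 between 4.13 and 5.78. Arrays of a pair correlated at 0.936 to 0.980 over all probe sets, and 5 arrays, the second of each brain passage and lung P1, had a 5th percentile of 2.49 to 3.04, against 2.01 to 2.40 on the other arrays.

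Atp1b1 was the gene of the set that moved most clearly: it was about 3.55-fold above P0 at brain P1, 3.85-fold above it at brain P2, and below it at brain P3 and P4. The beta 1 subunit that it encodes also acts in adhesion between epithelial cells. At brain P1 the 2 arrays read 11.48 and 11.33, at brain P2 11.61 and 11.43, at brain P3 8.49 and 8.33, at brain P4 8.28 and 8.11, and in P0 9.24 and 9.91. The 4 early brain arrays (P1 and P2) lay above both parental arrays, the 4 late ones (P3 and P4) below both. No array of the first brain experiment thus overlapped P0. The log2 difference from P0 was 1.83 ± 0.23 (standard error, n = 2 and 2, adjusted p = 0.00374) at brain P1 and 1.95 ± 0.23 (adjusted p = 0.0024) at brain P2. It was -1.16 (adjusted p = 0.0814) at brain P3 and -1.38 (adjusted p = 0.0325) at brain P4. In RNA of whole cultures, more cells that carry a transcript and more transcript per cell cannot be told apart. The call at brain P4 rested on single arrays, with -1.04 (adjusted p = 0.141) without P0 replicate 2, -1.46 (adjusted p = 0.0671) without brain P4 replicate 1 and -1.30 (adjusted p = 0.193) without brain P4 replicate 2. At brain P3, 1 of the 8 genes, Atp1b1, was called once P0 replicate 1 was left out. The median of the tested genes on chromosome 1, where Atp1b1 lies, stood at -0.26 and -0.35 on the brain P4 arrays, and with chromosome medians subtracted Atp1b1 was at -1.08 (adjusted p = 0.0692).

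Of the 8 genes, 1 rose at brain P1, where 1.98% of all genes tested rose, and 1 at brain P2, where 4.95% rose, Atp1b1 both times. At brain P3 0 of 8 were called (0.663% of all genes in either direction; 3 of the 8 had an unadjusted limma p under 0.05), and at brain P4 1 fell, against 0.857% of all genes. The median log2 difference of the 8 was 0.39 at brain P1 and 0.62 at brain P2, beside -0.02 and -0.05 over all genes. All genes together stood at a median of -0.10 at brain P3 and -0.19 at brain P4, and the late values are read against that.

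**Figure D1:**
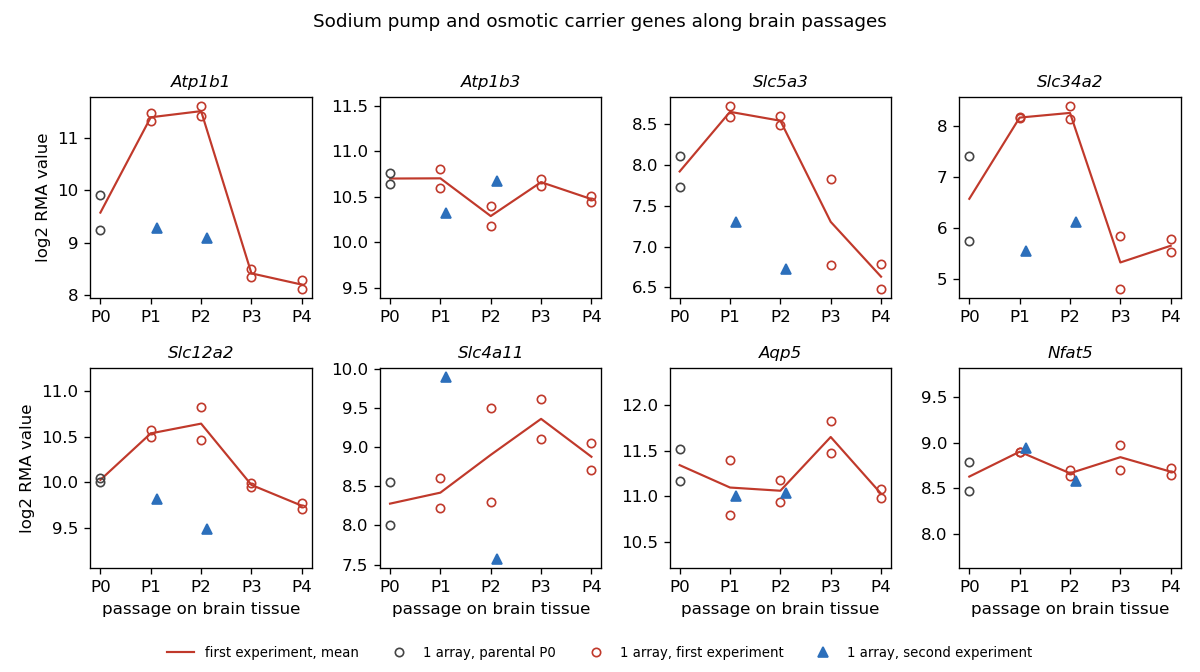
Log2 RMA values (vertical axes) of the 8 genes in parental cells (P0) and at passages P1 to P4 on brain tissue (horizontal axes). Circles are single arrays of the first experiment and of P0, the line joins group means, and triangles are the single arrays of the second experiment, whose Atp1b1 values of 9.28 and 9.08 lie beside P0 and not beside 11.33 to 11.61.

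The other beta subunit gene, Atp1b3, did not follow Atp1b1. Its arrays read 10.60 and 10.80 at brain P1, 10.18 and 10.40 at brain P2, 10.70 and 10.62 at brain P3, 10.51 and 10.44 at brain P4, and 10.64 and 10.76 in P0. Its whole range over 21 arrays was 0.80, against 3.50 for Atp1b1. The difference from P0 was 0.00 (95% interval -0.38 to 0.39) at brain P1 and -0.41 (-0.80 to -0.03, adjusted p = 0.162) at brain P2. A second probe set of Atp1b3 read 9.68 to 10.45 over all arrays, and 9.68 and 9.71 at brain P2 against 9.96 and 10.14 in P0. Of the 4 kept genes in a list of 18 pump subunits and FXYD regulators, 1 rose and 0 fell in early brain (P1 and P2 pooled) against P0, where 4.12% of all genes rose and 7.30% fell, that gene being Atp1b1. Fxyd3, which encodes a small protein that modulates the pump, read 9.80 and 9.54 at brain P1, 10.22 and 9.96 at brain P2, 8.87 and 8.94 at brain P3, 9.23 and 8.88 at brain P4, and 10.32 and 10.09 in P0. It fell in late brain against P0 by 1.22 on the log2 scale (adjusted p = 0.0164), a call that ended without P0 replicate 1 (-1.11, adjusted p = 0.107), P0 replicate 2 (-1.34, adjusted p = 0.0858) and brain P3 replicate 2 (-1.24, adjusted p = 0.053).

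Slc34a2 encodes a sodium-coupled phosphate carrier of lung, gut and mammary epithelium. Its values were 8.16 and 8.17 at brain P1, 8.38 and 8.13 at brain P2, 4.81 and 5.85 at brain P3, 5.53 and 5.79 at brain P4, and 5.74 and 7.41 in P0. The 4 early brain arrays lay above both parental arrays, but the parental arrays themselves lay far apart. The difference was 1.59 ± 0.50 (adjusted p = 0.114) at brain P1 and 1.68 ± 0.50 (adjusted p = 0.0626) at brain P2, neither past the threshold, and 1.63 ± 0.43 (3.10-fold, adjusted p = 0.0471) with both passages pooled. Without P0 replicate 1, the lower array, the pooled difference was 0.80 (adjusted p = 0.303), and leaving out any 1 of the 4 early brain arrays gave 1.57 to 1.70 with adjusted p of 0.0797 to 0.106. Without P0 replicate 2 Slc34a2 was called at brain P1 (2.42, adjusted p = 0.0261) and brain P2 (2.51, adjusted p = 0.0158). Since 14 of the 16 groups lay below 7.36, P0 among them, the size of its difference is uncertain.

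Slc5a3 encodes the sodium-coupled carrier of myo-inositol, a target of NFAT5 in kidney cells. It read 8.72 and 8.59 at brain P1, 8.49 and 8.60 at brain P2, 7.83 and 6.78 at brain P3, 6.48 and 6.78 at brain P4, and 7.73 and 8.11 in P0. All 4 early brain arrays lay above both parental arrays, by a pooled 0.68 ± 0.27 (adjusted p = 0.164) that did not pass the test, and at brain P4 both arrays lay below P0, at -1.29 ± 0.32 (adjusted p = 0.127). Slc5a3 overlaps Mrps6, a mitochondrial ribosome gene, in the annotation used here. Mrps6 read 9.10 to 9.60 in early brain and 9.02 and 9.14 in P0. It read 8.66 to 9.02 in late brain, 8.39 to 9.05 on bone marrow and lung at P1 and P2, and 8.73 at second brain P2. All of these lay below early brain, as Slc5a3 did in the comparisons given below. The part of Mrps6 transcripts in the Slc5a3 values was not tested.

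Slc12a2 encodes the sodium, potassium and chloride cotransporter NKCC1, which brings in salt when cells shrink. Its values were 10.50 and 10.57 at brain P1, 10.46 and 10.82 at brain P2, 9.99 and 9.95 at brain P3, 9.78 and 9.71 at brain P4, and 10.001 and 10.05 in P0. Each early brain array was above both parental arrays, and both brain P4 arrays were below them. At brain P2 the difference was 0.62 ± 0.17 (adjusted p = 0.0542), and pooled over early brain it was 0.56 ± 0.15 (1.48-fold, adjusted p = 0.0499). The pooled call stood close to the threshold: it ended without P0 replicate 1 (0.54, adjusted p = 0.223), P0 replicate 2 (0.59, adjusted p = 0.164), brain P1 replicate 1 (0.58, adjusted p = 0.109), brain P1 replicate 2 (0.54, adjusted p = 0.131) and brain P2 replicate 2 (0.47, adjusted p = 0.113).

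With the early passages pooled, 3 of the 8 genes rose against P0 (Atp1b1, Slc34a2 and Slc12a2), where 4.12% of all genes rose, and 0 fell, where 7.30% fell. Slc34a2 was tested only because of these same early brain arrays, so its place in the count is no result, and with no filter on low values 1 of the 8, Atp1b1, was called while Slc34a2 had an adjusted p of 0.246. Atp1b1 in that comparison was at 1.89 ± 0.20 (3.70-fold, adjusted p = 0.00132). In late brain 1 of 8 fell against P0 (0.650% of all genes fell), Atp1b1 at -1.27 ± 0.20 (adjusted p = 0.0257). That call ended without P0 replicate 2 (-0.94, adjusted p = 0.204), brain P3 replicate 1 (-1.31, adjusted p = 0.0503, where Slc5a3 was called in its place), brain P3 replicate 2 (-1.23, adjusted p = 0.0923) and brain P4 replicate 2 (-1.23, adjusted p = 0.0751). Without the 5 arrays of high 5th percentile, which leaves 1 residual degree of freedom, 0 of the 8 were called in early brain and Atp1b1 stood at 1.97 (adjusted p = 0.0936). On the first arrays of the brain pairs alone the value of Atp1b1 was thus as large.

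**Figure D2:**
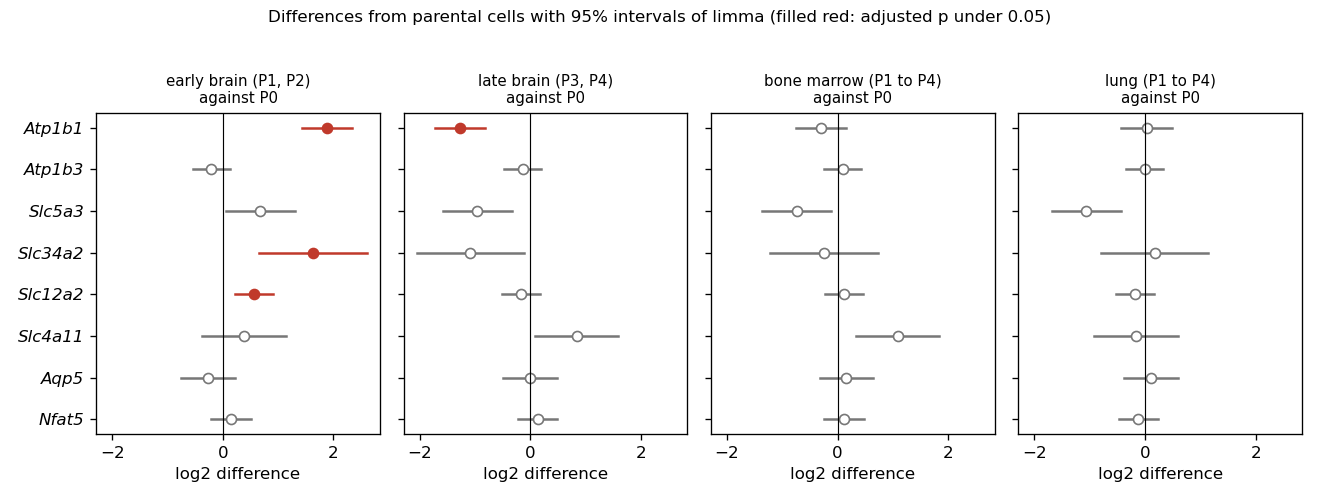
Log2 differences from P0 (horizontal axes) of the 8 genes, with 95% intervals of the limma fit, for early brain, late brain, bone marrow and lung with passages pooled. Filled red points have an adjusted p under 0.05: Atp1b1, Slc34a2 and Slc12a2 in early brain at 1.89, 1.63 and 0.56, and Atp1b1 in late brain at -1.27.

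The promoters of Atp1b1, Slc34a2 and Slc5a3 are shown because these genes were high on the same 4 early brain arrays. The sequences are those of RefSeq on build GRCm38.p6, from 250 bases before to 50 bases after the annotated start of the gene, read along the strand of the gene. They lie at chr1:164458306-164458605 (minus strand) for Atp1b1, chr5:53049103-53049402 (plus strand) for Slc34a2 and chr16:92058072-92058371 (plus strand) for Slc5a3. Capitals mark matches, on either strand, of the GC box letters GGGCGG and of TATATA.
Atp1b1: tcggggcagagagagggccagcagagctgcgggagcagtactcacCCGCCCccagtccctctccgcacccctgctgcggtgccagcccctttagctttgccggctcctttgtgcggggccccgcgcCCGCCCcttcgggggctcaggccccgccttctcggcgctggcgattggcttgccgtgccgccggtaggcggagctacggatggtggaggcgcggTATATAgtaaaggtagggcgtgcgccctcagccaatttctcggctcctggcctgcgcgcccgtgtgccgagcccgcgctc
Slc34a2: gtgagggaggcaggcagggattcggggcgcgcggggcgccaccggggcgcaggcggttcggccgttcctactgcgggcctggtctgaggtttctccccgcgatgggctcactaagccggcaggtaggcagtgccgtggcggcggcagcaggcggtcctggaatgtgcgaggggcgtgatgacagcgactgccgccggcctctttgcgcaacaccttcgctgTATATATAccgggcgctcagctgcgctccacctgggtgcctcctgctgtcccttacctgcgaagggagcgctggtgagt
Slc5a3: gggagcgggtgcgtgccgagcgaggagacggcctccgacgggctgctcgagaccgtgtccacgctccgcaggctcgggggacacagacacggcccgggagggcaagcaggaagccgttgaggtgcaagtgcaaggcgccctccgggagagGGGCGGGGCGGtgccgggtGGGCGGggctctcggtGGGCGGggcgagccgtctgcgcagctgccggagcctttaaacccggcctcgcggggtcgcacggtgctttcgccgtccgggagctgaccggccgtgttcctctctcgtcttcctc
Atp1b1 and Slc34a2 both hold TATATA close before the start, with first bases at -30 and -29 from the gene start, and in Slc34a2 a second, overlapping match begins at -27. Of 32851 mouse promoters of this length, 5.67% hold TATATA anywhere. Atp1b1 has 2 matches of GGGCGG and Slc5a3 has 4, some of them overlapping, and 35.7% of all promoters hold at least 1. The consensus of the tonicity-responsive element, to which NFAT5 binds, had 0 matches in these 3 windows and is held by 4.96% of all promoters. Its first letters TGGAAA, searched alone, had 0 matches as well and are held by 21.4%. The TATA box letters TATAAA (13.6% of all promoters), the E-box letters CACGTG (7.15%) and the cyclic AMP element TGACGTCA (1.79%) also had 0, which says only that these letters are not in these windows. Among the other 5 genes, Atp1b3, Aqp5 and Nfat5 had entries, and 1 of the 2 Atp1b3 promoters held 1 match of the tonicity-responsive element consensus.

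The fall from early to late brain was itself tested, since it asks whether the early state lasted. Of the 8 genes, 4 fell and 0 rose in late against early brain, where 16.7% of all genes fell and 11.1% rose. Atp1b1 averaged 8.30 in late brain and 11.46 in early brain, a log2 difference of -3.16 ± 0.16 (8.93-fold, adjusted p = 7.9e-06). Slc34a2 averaged 5.49 in late brain and 8.21 in early brain (-2.71 ± 0.35, adjusted p = 0.00109), and its late mean lay below the filter limit (adjusted p = 0.0131 with no filter). For Slc5a3 the late and early means were 6.97 and 8.60 (-1.63 ± 0.22, adjusted p = 0.00138), and for Slc12a2 they were 9.86 and 10.59 (-0.73 ± 0.12, adjusted p = 0.00379). In each of these 4 genes all late brain arrays lay below all early brain arrays. None of the 4 calls ended when any 1 array of brain P1 to P4 was left out. The median over the 8 was -0.38, beside -0.10 over all genes. The other 4 stood at 0.07 for Atp1b3, 0.46 for Slc4a11, 0.26 for Aqp5 and -0.02 for Nfat5, with the interval for Nfat5 from -0.31 to 0.27.

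The same comparison can be put to the other tissues, to ask whether the early values were shared. Against bone marrow and lung at P1 and P2, early brain was higher in 4 of the 8 genes, where it was higher in 9.89% of all genes. Atp1b1 averaged 11.46 in early brain and 9.41 in early bone marrow and lung (2.05 ± 0.16, adjusted p = 0.000109). Slc5a3 averaged 8.60 in early brain and 6.88 in those tissues (1.72 ± 0.22, adjusted p = 0.00121), Slc34a2 8.21 and 6.42 (1.79 ± 0.35, adjusted p = 0.0082), and Slc12a2 10.59 and 9.88 (0.71 ± 0.12, adjusted p = 0.0048). Slc34a2 had passed the filter through early brain itself, and with no filter its adjusted p was 0.0595 and 2 of the 8, Atp1b1 and Slc5a3, were called. In all 4 genes every early brain array lay above every bone marrow and lung array of P1 and P2. In late brain against late bone marrow and lung 0 of 8 were called (0.0415% of all genes in either direction; 2 of the 8 had an unadjusted limma p under 0.05), with Atp1b1 at -1.17 (adjusted p = 0.0705) and Slc34a2 at -1.16 (adjusted p = 0.38).

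On bone marrow Atp1b1 read 9.34, 9.51, 8.93 and 9.32 at P1 to P4, on lung 10.09, 8.69, 10.03 and 9.62, on breast tissue 8.89, and in P0 9.24 and 9.91. Lung P1 and P3 lay just above both parental arrays, and lung P2, bone marrow P3 and breast P1 below both. Ordered by group mean, brain P2 (11.52) and brain P1 (11.40) stood highest and differed by less than the arrays of a pair, lung P1 (10.09) came next, and brain P3 (8.41) and brain P4 (8.20) stood lowest. Pooled over passages, its difference from P0 had an interval of -0.75 to 0.16 for bone marrow and of -0.42 to 0.49 for lung. Slc34a2 read 6.37, 6.80, 5.76 and 6.37 at bone marrow P1 to P4 and 7.02, 5.49, 7.31 and 7.17 at lung P1 to P4, so it was low at lung P2, as Atp1b1 was. Slc12a2 read 9.73, 10.34, 10.17 and 10.31 at bone marrow P1 to P4, and 9.80, 9.66, 10.09 and 9.82 at lung P1 to P4.

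Slc5a3 was lower than both parental arrays in every adapted group outside the first brain experiment. It read 6.88, 7.07, 7.52 and 7.26 at bone marrow P1 to P4, 6.86, 6.72, 7.30 and 6.58 at lung P1 to P4, 7.11 on breast tissue, 7.30 and 6.73 in the second brain experiment, and 7.73 and 8.11 in P0. The pooled difference from P0 was -0.74 ± 0.27 on bone marrow (adjusted p = 0.528) and -1.06 ± 0.27 on lung (adjusted p = 0.432), and neither passed the test over all genes.

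In single passages outside the first brain experiment 0 of the 8 genes were called against P0. The share of all genes called there was 0.124%, 0.152%, 0.304% and 0.221% at bone marrow P1 to P4, 0.152%, 0.0415%, 0.0553% and 0.0829% at lung P1 to P4, 0.263% on breast tissue, and 1.59% and 0.0138% in the second brain experiment at P1 and P2. At an unadjusted limma p under 0.05 there were 0 to 2 of the 8 genes in each. With passages pooled, 0 of 8 were called on bone marrow (0.401% of all genes; 2 of the 8 had an unadjusted limma p under 0.05) and 0 of 8 on lung (0.207%; 1 of the 8). Lone arrays, which are assumed to vary like the pairs, limit what can be called there.

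**Figure D3:**
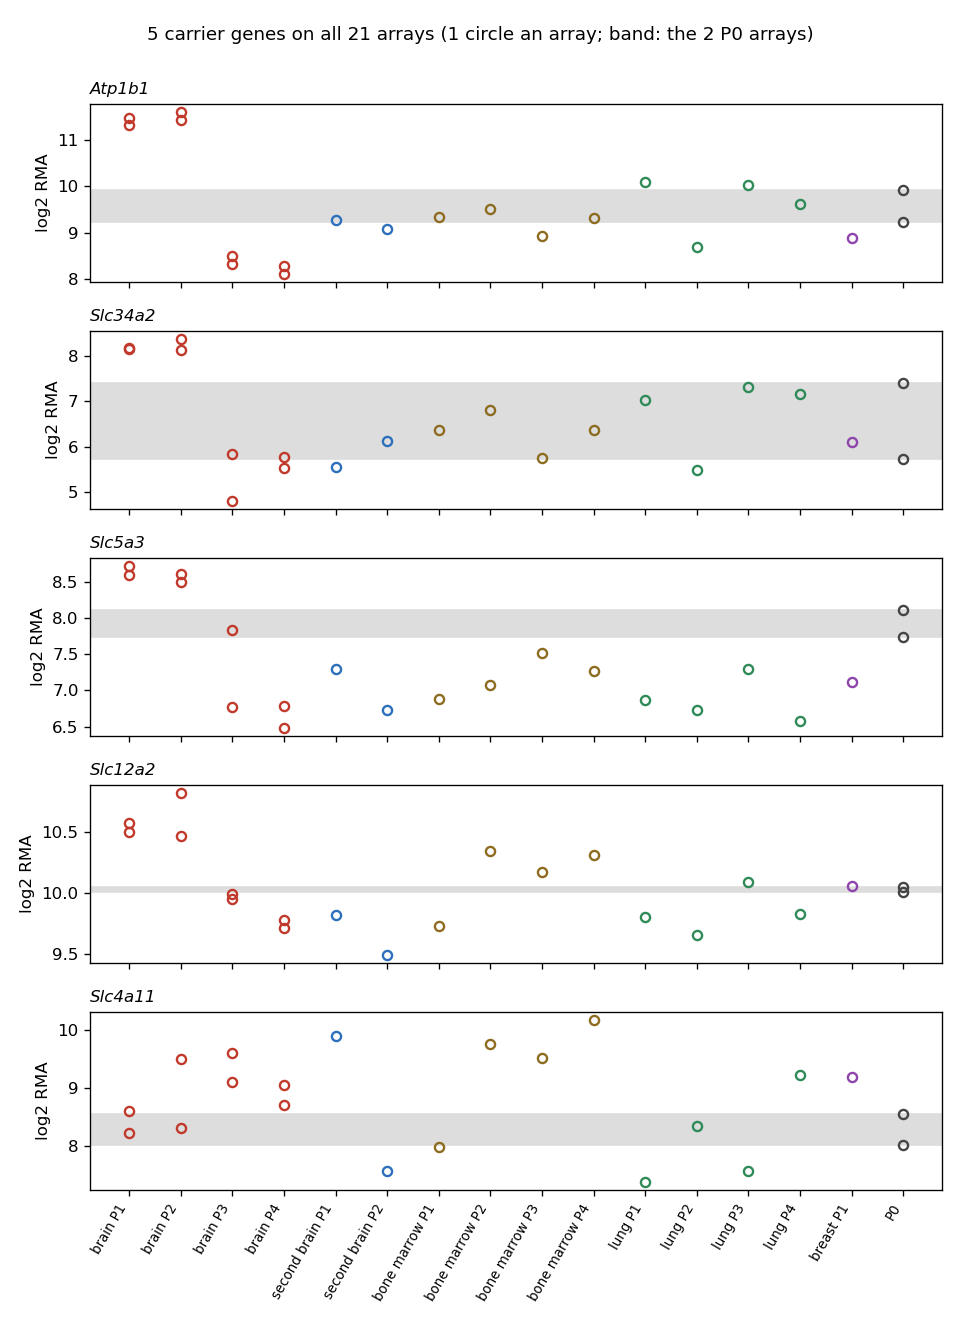
Log2 RMA values (vertical axes) of Atp1b1, Slc34a2, Slc5a3, Slc12a2 and Slc4a11 on all 21 arrays, by tissue and passage, with P0 at the right and its range as a grey band. Brain P1 and P2 stand above every other group for the first 4 genes, and Slc4a11 is spread within tissues, from 7.37 to 10.18.

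Slc4a11, a member of the bicarbonate carrier family that carries sodium, protons and water, varied along another line. Its values at bone marrow P1 to P4 were 7.97, 9.77, 9.53 and 10.18, on lung 7.37, 8.34, 7.56 and 9.22, on breast tissue 9.20, and in P0 8.55 and 8.004. Bone marrow P2, P3 and P4 lay above both parental arrays, and bone marrow P1 below both. The pooled difference on bone marrow was 1.08 ± 0.33 (adjusted p = 0.392) and that at bone marrow P4 was 1.91 ± 0.47 (adjusted p = 0.401), neither of which passed the test. On brain it read 8.61 and 8.23 at P1, 9.50 and 8.30 at P2, 9.11 and 9.61 at P3 and 8.71 and 9.05 at P4, so that the P2 arrays differed by more than the group from P0. All 4 late brain arrays were above P0, by 0.84 ± 0.33 (adjusted p = 0.356).

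Aqp5, the water channel gene of glands and of lung epithelium, stayed between 10.79 and 11.82 on all arrays. It read 11.40 and 10.79 at brain P1, 11.18 and 10.94 at brain P2, 11.82 and 11.47 at brain P3, 10.97 and 11.08 at brain P4, and 11.52 and 11.16 in P0. The early brain difference was -0.26 (95% interval -0.75 to 0.22) and overlapped P0. On bone marrow it read 11.33, 11.50, 11.62 and 11.55 at P1 to P4, and the median of the tested genes of its chromosome 15 stood at 0.05, 0.31, 0.21 and 0.32 above P0 on those arrays. Of 12 aquaporin genes measured Aqp5 was the 1 that passed the filter.

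Nfat5 varied least, between 8.41 and 8.98. It read 8.90 and 8.90 at brain P1, 8.63 and 8.70 at brain P2, 8.98 and 8.71 at brain P3, 8.72 and 8.64 at brain P4, and 8.79 and 8.47 in P0. The early brain difference was 0.15 (95% interval -0.20 to 0.51), an interval that does not reach a 2-fold change of the transcript, while the protein and its place in the cell were not measured. Of 6 kept genes in a list of 12 osmotic response genes, 0 were called in early brain and 2 fell at brain P2, where 8.43% of all genes fell. They were Slc6a6, the taurine carrier, at -0.74 ± 0.20 (adjusted p = 0.0457), and Hspa4l, a heat shock protein induced by osmotic stress, at -0.81 ± 0.16 (adjusted p = 0.0161). Slc6a6 read 9.31 and 9.80 at brain P2 and 10.38 and 10.21 in P0, and Hspa4l 7.62 and 7.50 at brain P2 and 8.42 and 8.32 in P0. The brain P2 arrays thus lay below P0 for the taurine carrier and above P0 for the myo-inositol carrier Slc5a3. In late against early brain Slc6a6 rose by 0.90 (adjusted p = 0.00268). The call of Slc6a6 at brain P2 ended without P0 replicate 1 (-0.65, adjusted p = 0.203), P0 replicate 2 (-0.82, adjusted p = 0.0999) and brain P2 replicate 1 (-0.49, adjusted p = 0.239). That of Hspa4l ended without each of those 3 and without brain P2 replicate 2, at adjusted p of 0.0539 to 0.0923, and stood at -0.47 (adjusted p = 0.111) with chromosome medians subtracted.

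The second adaptation experiment on brain read 9.28 and 9.08 for Atp1b1 at P1 and P2, 5.56 and 6.12 for Slc34a2, 7.30 and 6.73 for Slc5a3 and 9.81 and 9.49 for Slc12a2. These lay below all arrays of the first experiment at the same passages, in all 4 genes. Over many genes, the study placed both passages of the second experiment nearest to later points of the first, and read this as faster adaptation. Equal passage numbers may therefore not be equal stages, and the experiments were compared here by passage number alone. Against brain P1 of the first experiment, 2 of the 8 fell at second brain P1 (2.42% of all genes fell), with log2 differences of -2.13 for Atp1b1 (adjusted p = 0.00479) and -2.60 for Slc34a2 (adjusted p = 0.0394). At P2, 3 of the 8 fell (3.98% of all genes fell), with log2 differences of -2.44 for Atp1b1 (adjusted p = 0.00271), -1.82 for Slc5a3 (adjusted p = 0.028) and -1.15 for Slc12a2 (adjusted p = 0.0165). With both experiments in 1 group per passage and the experiment as a random block, 0 of the 8 genes were called. Atp1b1 stood at 0.97 for P1 (adjusted p = 0.795) and, for P2, at 0.98 (adjusted p = 0.734). Pooled over both passages in the same way, an alternative chosen after seeing the data, it stood at 0.98 (adjusted p = 0.772) and 0 of the 8 were called. The share of all genes called with the random block was not recorded, so these counts of 0 show nothing particular to the 8 genes. The call of Slc34a2 at P1 ended with no filter (adjusted p = 0.237) and without brain P1 replicate 1 (-2.60, adjusted p = 0.127) or replicate 2 (-2.60, adjusted p = 0.137). At P2 that of Slc5a3 ended without brain P2 replicate 1 (-1.87, adjusted p = 0.0739) or replicate 2 (-1.76, adjusted p = 0.101), and that of Slc12a2 without brain P2 replicate 2 (-0.97, adjusted p = 0.0721), where Slc4a11 was called together with Atp1b1. Slc4a11 lay above the first experiment at P1 and below it at P2, with 9.89 at second brain P1 against 8.61 and 8.23 at brain P1, and 7.57 at second brain P2 against 9.50 and 8.30 at brain P2.

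Other genes of salt and volume control moved on the same early brain arrays. Of 11 kept genes in a list of 21 genes of cell volume control, 4 rose in early brain and 0 fell (4.12% of all genes rose and 7.30% fell), and in late against early brain 5 fell and 0 rose (16.7% of all genes fell and 11.1% rose). The 4 were Slc12a2, the volume-regulated anion channel subunits Lrrc8b and Lrrc8d, and Wnk2, a kinase of the family that controls chloride cotransporters. Lrrc8b read 9.90 and 10.16 at brain P1, 10.32 and 10.47 at brain P2, and 9.13 and 9.32 in P0, a pooled difference of 0.99 ± 0.16 (adjusted p = 0.00787). Lrrc8d read 9.38 and 9.40 at brain P1, 10.27 and 9.93 at brain P2, and 8.85 and 9.01 in P0 (0.81 ± 0.16, adjusted p = 0.0144), and it was also high at second brain P1, at 10.37. Wnk2 was at 0.84 ± 0.22 (adjusted p = 0.0489) in early brain and at -1.76 ± 0.18 (adjusted p = 0.000363) in late against early brain. Like Slc34a2 it passed the filter only through brain P1 and P2, so it had to be high there to be tested, and with no filter its adjusted p in early brain was 0.271. Among 4 kept of 6 phosphate carrier genes 2 rose in early brain, where 4.12% of all genes did, Slc34a2, with the limit given above, and Slc20a1, a widespread sodium-coupled phosphate carrier, at 0.57 ± 0.15 (adjusted p = 0.043). Slc20a1 read 12.11 and 11.91 in the second brain experiment, against 11.38 and 11.49 in P0, and so was above P0 in both experiments. Of 3 kept of 6 genes of sodium entry, 1 rose against the same share, Nedd4l, a ubiquitin ligase that removes sodium channels from the membrane, at 0.62 ± 0.14 (adjusted p = 0.0245). Of 2 kept of 6 genes of inositol supply, Impa1, which frees inositol from its phosphate, fell at brain P2 to 7.54 and 7.48, against 8.12 and 8.58 in P0 (-0.84 ± 0.22, adjusted p = 0.0437), where 8.43% of all genes fell, and 0 rose. Of 3 kept of 10 bicarbonate carrier genes 0 were called in early brain.

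Each of the 5 early brain calls of Lrrc8b, Lrrc8d, Wnk2, Slc20a1 and Nedd4l ended without P0 replicate 1, at adjusted p of 0.0759 to 0.222. Without P0 replicate 2 those of Lrrc8d, Wnk2, Slc20a1 and Nedd4l ended, at adjusted p of 0.0561 to 0.177, and without any 1 of the 4 early brain arrays those of Wnk2, Slc20a1 and Nedd4l did, at adjusted p of 0.0545 to 0.128. Impa1 at brain P2 lost its call without any 1 array of P0 or brain P2, at adjusted p of 0.0645 to 0.205, and was at -0.50 (adjusted p = 0.155) with chromosome medians subtracted. Impa1 and Hspa4l both lie on chromosome 3, and both lost their calls at brain P2 in that setting, so their falls cannot be taken as separate.

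**Figure D4:**
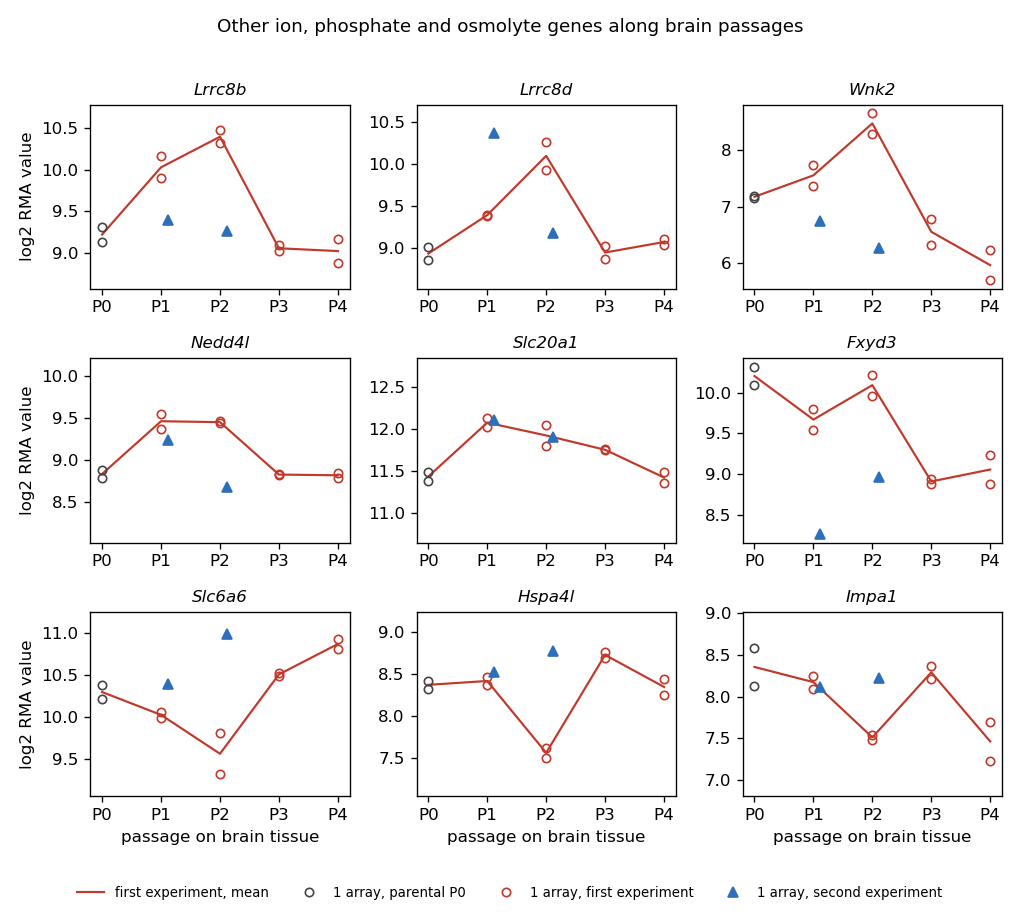
Log2 RMA values (vertical axes) of 9 other genes of ion, phosphate and osmolyte handling in P0 and at P1 to P4 on brain (horizontal axes), with circles for single arrays, lines through group means and triangles for the second experiment. The circles of Lrrc8b, Lrrc8d, Wnk2 and Nedd4l are highest at P1 and P2, and those of Slc6a6 and Hspa4l are lowest at P2.

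Among the 8 genes, the profiles of Atp1b1 and Slc34a2 over the 16 group means were most alike, with Pearson's r of 0.94, and 0.88 over the 14 groups other than brain P1 and P2. Slc5a3 and Slc12a2 had r of 0.81 over 16 groups and 0.59 over 14, and Atp1b1 and Slc5a3 0.74 and 0.17, so that the last pair rested on early brain. Over all tested genes, the 3 most like Atp1b1 were Slc34a2 (0.94), Lrrc8b (0.94) and Dip2c (0.93), and those most like Slc34a2 were Atp1b1 (0.94), Mfap3l (0.92) and Rasal1 (0.92). Slc5a3 was nearest to Tax1bp1 (0.89), Ufsp1 (0.89) and Xiap (0.89), and Slc12a2 to Dock4 (0.92), Sema3b (0.90) and Dcun1d4 (0.89). For Slc4a11 they were Cav2 (0.91), Frmd4a (0.90) and Prss22 (0.88), for Atp1b3 Stard4 (0.88), Tram1 (0.87) and Idi1 (0.85), for Aqp5 Commd5 (0.89), Tkt (0.87) and Pfdn5 (0.85), and for Nfat5 Trmt61a (0.89), Itgb1 (0.88) and Pwp2 (0.88). These are descriptions over group means that share 1 normalization and, within a tissue, 1 adapted line.

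Markers of other cell types were read beside these results. Of 6 microglia and macrophage markers 1, Cd68, lay above 7.36 in early brain, at 7.62 to 8.48 against 5.99 to 6.03 in P0, while Csf1r read 4.40 to 4.71 in early brain and 4.63 to 4.91 in P0, and Adgre1 3.39 to 3.83 and 3.15 to 3.39. Cd68 also read 6.60 to 8.22 in late brain and 6.16 to 7.49 on lung. Summed on the linear scale, the list was at 343 to 496 in early brain, 229 to 503 in late brain and 192 to 194 in P0. Of 5 choroid plexus markers 1, Folr1, lay above 7.36 on all early brain arrays (7.62 to 8.37, against 7.17 to 7.72 in P0), with sums of 260.2 to 398 in early brain and 217 to 274 in P0. Of 6 alveolar epithelium markers 1, Abca3, lay above 7.36 in early brain, at 8.14 to 8.75 against 7.76 to 7.92 in P0, with sums of 411 to 604 in early brain and 398 to 407 in P0, while the surfactant genes Sftpc, Sftpb and Sftpa1 read 4.01 to 5.11 in early brain and 3.88 to 5.30 in P0. For 6 neuron and 5 astrocyte markers, 0 lay above 7.36 on any array, with sums of 147 to 187 and 140.4 to 204 in early brain and 126 to 140 and 112 to 121 in P0. Of the astrocyte markers, Slc1a2 read 5.62 to 6.86 in early brain and 4.81 to 4.92 in P0. Gfap went the other way, at 4.13 to 4.47 and 4.64 to 4.71, and Aldh1l1 read 4.17 to 4.54 and 4.15 to 4.35. The second array of each early brain pair was among those of high 5th percentile, which bears on sums of low values. For 4 oligodendrocyte, 6 leukocyte, 6 fibroblast and 5 endothelium markers, 0 lay above 7.36 in early brain or P0. Their sums in early brain were 91.0 to 112, 114 to 116, 218 to 243 and 91.0 to 107. In P0 the sums were 95.9 to 106, 103 to 124, 238 to 241 and 80.1 to 92.9, in the same order. The part of all these marker transcripts in the values of the carrier genes was not tested.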

How the data were processed

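RNA of 21 cultures was hybridised to Affymetrix Mouse Gene 1.0 ST arrays. The deposited values are log2 intensities that the authors summarised per probe set by RMA in Expression Console. Of 34760 probe sets, 21640 carry 1 gene symbol, 1321 several and 11799 none. Probe sets with 1 symbol gave 19937 genes, and a gene was read from its probe set with the highest mean. The methods state no test of single genes between groups, so limma 3.58.1 (R 4.3.3) fitted 1 mean per group over 16 groups, with moderated variances and Benjamini-Hochberg adjustment over the 10428 kept probe sets. Lone arrays were assumed to vary like the pairs, with 5 residual degrees of freedom. The fit was run on simulated data with planted changes. These held independent noise of the fitted spread, so they cannot show whether lone arrays or cultures of 1 line vary in that way. Named are the 8 genes, list genes that passed the test, and the 3 genes most like each of the 8. The genes and lists were chosen with earlier results of these data known. The number of arrays limits the precision. Duplicate arrays are cultures of 1 adapted line, so p-values measure only that spread. The second brain arrays are 1 series of technical replicates by their titles, and their deviations from the group means correlated at 0.101 to 0.358 between passages, so this series was tried as a block within brain. The other alternatives were other filters, scalings, variance models and left-out arrays. Figures were drawn with matplotlib 3.10.9.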

Additional observations from a re-analysis of the deposited data

Results flagged for a closer look

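In 13 cases the change of a gene from P0 differed between passages, tissues or experiments by a limma test of the difference itself. Between late and early brain these were Atp1b1 (-3.16), Slc34a2 (-2.71), Slc5a3 (-1.63) and Slc12a2 (-0.73), on the log2 scale. Between early brain and early bone marrow and lung they were the same 4 genes, Atp1b1 (2.05), Slc34a2 (1.79), Slc5a3 (1.72) and Slc12a2 (0.71). Between the second and the first brain experiment they were Atp1b1 (-2.13) and Slc34a2 (-2.60) at P1, and Atp1b1 (-2.44), Slc5a3 (-1.82) and Slc12a2 (-1.15) at P2. Of all genes, 16.7% fell in late against early brain, and 9.89% were higher in early brain than in early bone marrow and lung. In the second against the first experiment 2.42% fell at P1 and 3.98% at P2. Slc34a2 passed the filter through brain P1 and P2 alone. With no filter its calls against early bone marrow and lung and at second brain P1 ended. Mrps6, which overlaps Slc5a3, was also higher on the early brain arrays in the comparisons where Slc5a3 is named. All of these comparisons share the early brain arrays of the first experiment. The second experiment has 1 array a passage and was set against the first by passage number alone.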

How the results depend on the processing

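With the second brain arrays, a labelled series, as a replicate block, chosen after seeing the data, 4 of the 8 genes were called in late against early brain, the same 4 as reported, with Atp1b1 at -3.16 (adjusted p = 1.97e-05), and the block changed no other call there. For the other comparisons no paired fit was made, since P0 and the lone arrays have no such series. The numbers below count how many of the 8 genes were called, and the share of all genes called under each setting was not recorded. With no filter on low values the count was 0 at brain P4 and in late brain (1 as reported), 1 in early brain (3), 2 in early brain against early bone marrow and lung (4), 0 for second brain P1 against brain P1 (2) and 1 for second brain P2 against brain P2 (3). With a stricter filter it was 2 at brain P2 (1) and 2 in early brain (3), where Slc34a2 was not called. That filter also gave 1 in late brain against late bone marrow and lung (0) and 1 for second brain P1 against brain P1. With array medians made equal or cyclic loess it was 2 at brain P2, and with cyclic loess 0 at brain P4. With a variance trend it was 2 at brain P2, 1 at brain P3 (0) and 1 in late brain against late bone marrow and lung. With chromosome medians subtracted it was 0 at brain P4, 1 in early brain and 1 for second brain P1 against brain P1. With both brain experiments in 1 group and a random block it was 0 at brain P1 and brain P2, and Slc5a3 at brain P2 turned to -0.087 (adjusted p = 0.979). Without the 5 arrays of high 5th percentile, an alternative chosen after seeing the data, it was 0 at brain P1, P2 and P4, in early and in late brain and in both comparisons of the second experiment, 1 in late against early brain (4) and 2 in early brain against early bone marrow and lung. Leaving out 1 array at a time gave 1 to 2 at brain P1 and P2, 0 to 1 at brain P3, P4 and in late brain, 1 to 2 in early brain, 1 for second brain P1 against brain P1, and the changes by array stand beside each result. With passages pooled, chosen after seeing the data, that random block gave 0 in early brain. The rise of Atp1b1 in early brain kept its call under the other alternatives run for it, the exceptions being this block (0.98, adjusted p = 0.772) and the fit without the 5 arrays. Lone arrays on bone marrow, lung and breast tissue limit what could be called there.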
